A study of Mus musculus with 1989 samples.

Results

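The cells described here stand for the mature CD4 single-positive thymocytes (CD4sps) of 1 scRNA-seq library of the mouse thymus. They are called CD4sp-like cells below and members in the plots, and they numbered 87 of 1993 cells, or 4.37%. That share follows from a first step of fixed size and does not measure how frequent such cells are. The CD4sp-like cells were chosen on measured values in 2 steps. The 300 cells with the highest mean log2 value over Klf2, Ccr7, Ms4a4b, Ltb, Shisa5 and Cd52 were taken first, and of these the cells with Cd4 above 0 and Cd8b1 below 2 were kept. Everything measured in these cells is therefore given as a description, without a test. The library was made with a droplet method from thymus cells, with no sort given, of male C57BL/6 mice, an inbred laboratory strain, aged 7 weeks and without a stated genetic change or treatment. The number of animals behind the library is not given in the sources used here, so the library was 1 sample, SDs are spreads over cells and intervals cover counting error only. For a readout outside the rule, scATAC-seq profiles of 119 CD4 sorted, 116 CD8 sorted and 125 DP sorted thymocytes of the same age and sex were used.

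In the thymus, double-positive (DP) thymocytes carry both coreceptors, CD4 and CD8, and rearrange the T cell receptor α chain with the Rag recombinase. Cells whose receptor binds MHC class II keep CD4 under the transcription factor ThPOK (gene Zbtb7b), and cells whose receptor binds MHC class I keep CD8 under Runx3. Single-positive cells then mature in the medulla, where they gain the transcription factor Klf2, the chemokine receptor Ccr7, MHC class I and the exit receptor S1pr1 before they leave for the blood.

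The rule left little room between groups. The cell at rank 300 had a score of 1.951 and the cell at rank 301 one of 1.947, and all 6 score genes were above 0 in 39 of the 87 CD4sp-like cells, with at least 4 in each. Cd4 ranged from 0.16 to 3.72 in the CD4sp-like cells, with a median of 1.13. The highest Cd8b1 value inside the limit was 2.00 and the lowest value of a Cd4-positive cell left out was 2.01. Values were also read as steps, counted upward within each cell from its lowest value above 0, which is 1 step. Cd4 stood at 1 step in 49 of the CD4sp-like cells and at 2 or more in 38, and the value of 1 step ranged from 0.16 to 1.21 between these cells with a median of 0.82. Cd8b1 was at 0 in 28 of them, at 1 step in 38, at 2 steps in 18 and higher in 3. The coreceptor calls of most cells thus rest on the lowest detectable level of Cd4.

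**Figure D1:**
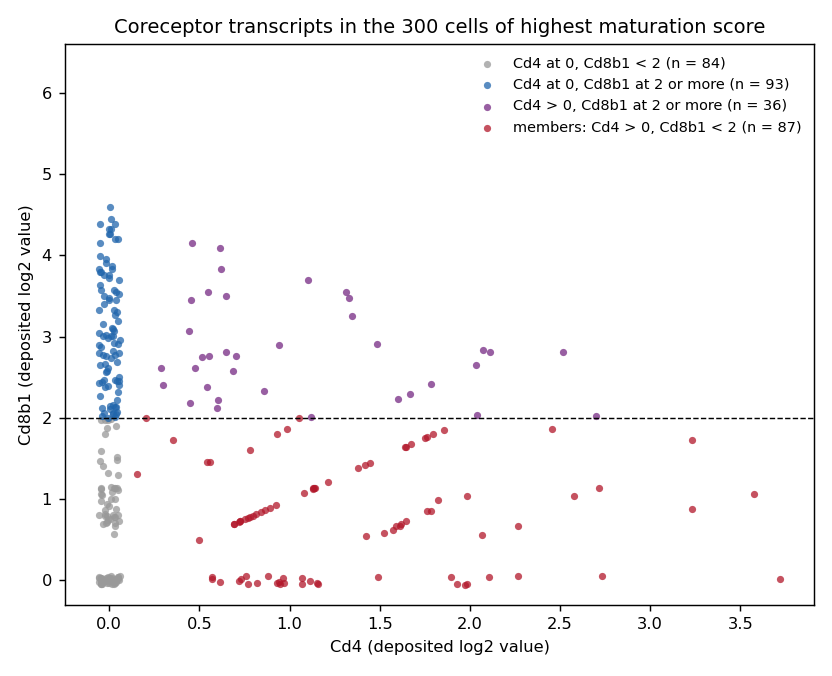
Cd4 (x axis) against Cd8b1 (y axis), both as deposited log2 values, in the 300 cells of highest score; each point is 1 cell, points at 0 are spread by up to 0.06 so that they can be seen, and the dashed line marks a Cd8b1 value of 2. The 87 members lie right of 0 and under the line, and 93 cells had Cd4 at 0 with Cd8b1 at 2 or more.

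The other 213 of the 300 cells fell into 3 groups. In 93 cells, called CD8-side cells here, Cd4 was at 0 and Cd8b1 at 2 or more, in 36 cells Cd4 was above 0 and Cd8b1 at 2 or more, and in 84 cells Cd4 was at 0 and Cd8b1 below 2. Further comparison groups were the 300 cells ranked 301 to 600 by the score, all 1693 cells outside the 300, and 625 resting Rag1 cells, which lay outside the 300 with Rag1 above 0 and the proliferation gene Mki67 at 0. Depth was compared as the steps summed over all genes of a cell, with a median of 2165 in the CD4sp-like cells, 2555 in the CD8-side cells, 2934.5 in the cells with both coreceptors, 1993 in the cells with neither, 2089.5 at ranks 301 to 600 and 2106 in the resting Rag1 cells. Between 862 and 2903 genes were detected in a CD4sp-like cell. The mean log2 value over 13 mitochondrial genes was 2.83 ± 0.24 (SD over cells) in the CD4sp-like cells and 2.83 ± 0.24 in the rest of the 300.

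Free RNA in the droplets sets a limit to what a low share of cells can show. As a reference for it, 36 cells with the MHC class II genes H2-Aa, H2-Ab1 and H2-Eb1 all above 1 were taken as antigen-presenting cells, with a median of 2626.5 steps, and none of them was among the CD4sp-like cells. In these 36 cells Rag1 was above 0 in 47.2% and Mki67 in 30.6%, against 19.5% and 17.2% of the CD4sp-like cells. Those shares in the CD4sp-like cells were below those of the reference cells and are not read as shares of expressing cells. Cd8b1 was above 0 in 91.7% of the reference cells and 67.8% of the CD4sp-like cells, where the rule limited it. The reference group held cells with summed levels of up to 21.0 over 12 rearranging DP genes, 28.9 over 13 T cell receptor genes and 26.9 over 17 cycling genes. Of its 36 cells, 4 were among the 300. Whether free RNA, doublets or their own expression gave the shares in these cells was not tested. The same reference cells bear on the genes of the rule. Cd4 was above 0 in 25.0% of the antigen-presenting cells (12.1 to 42.2%), and their median Cd8b1 of 2.08 lay above the limit of 2. A call at 1 step of Cd4, or on Cd8b1 near 2, was therefore also met by cells of that group. H2-Aa was above 0 in 14.9% of the CD4sp-like cells and Cd74 in 31.0%. Of 11 antigen-presenting markers measured, the B cell genes Cd79a and Ms4a1 and the plasmacytoid dendritic cell gene Siglech were at 0 in every CD4sp-like cell. The exact 95% interval of a share of 0 in 87 cells reaches 4.15%, which limits cells with a detected value and does not cover missed detection. The summed level of the 11 markers ranged from 0 to 6.89 in the CD4sp-like cells, from 0 to 32.7 in the CD8-side cells and from 3.55 to 36.9 in the antigen-presenting cells.

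The label could be checked only in part against genes outside the rule. Zbtb7b, which encodes the factor that commits cells to the CD4 lineage, was above 0 in 20 of the 87 CD4sp-like cells, or 23.0% (95% interval, 14.6 to 33.2%). Counted only above a value of 1, the share was 3.45%, against 1.88% in the rest of the 300. The value of 1 step reached 1.21 in the CD4sp-like cells and falls with depth, so this limit also selects by depth. Its share was 15.5% in the cells with neither coreceptor call, 11.1% in those with both and 5.38% (1.77 to 12.1%) in the CD8-side cells, whereas it was 2.88% in the resting Rag1 cells and 5.56% in the antigen-presenting cells. When every cell was thinned to 1300 steps, the shares were 14.9% in the CD4sp-like and 2.15% in the CD8-side cells. The share was highest in the CD4sp-like cells, but most of them had no detected Zbtb7b, and its interval overlapped those of the groups with both coreceptors (3.11 to 26.1%) and with neither (8.51 to 25.0%). Cd40lg, the ligand by which helper T cells activate B cells, was above 0 in 19.5% of the CD4sp-like cells (11.8 to 29.4%) and in 4.30% of the CD8-side cells (1.18 to 10.6%). It was above 0 in 16.7% of the cells with neither call and in none of the 36 antigen-presenting cells. Zbtb7b and Cd40lg were detected together in 7 CD4sp-like cells, Zbtb7b alone in 13 and Cd40lg alone in 10.

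Of the genes of cytotoxic cells, Nkg7, Klrd1 and Itgae were nearly absent from the CD4sp-like cells. Nkg7, a granule protein of CD8 T and natural killer cells, ranged from 0 to 2.53 in the CD4sp-like cells with a median of 0, and from 0 to 4.09 in the CD8-side cells with a median of 0.97. The means were 0.04 ± 0.29 (SD over cells) and 1.29 ± 1.26, and the shares 2.30% (0.280 to 8.06%) and 64.5% (53.9 to 74.2%). The Nkg7 share was 8.96% in resting Rag1 cells. Runx3, the factor that commits cells to the CD8 lineage, was above 0 in 9.20% of the CD4sp-like cells (4.05 to 17.3%), 55.9% of the CD8-side cells, 8.16% of the resting Rag1 cells and 25.0% of the antigen-presenting cells. The Nkg7 share of the CD4sp-like cells lay below that of resting Rag1 cells, and the interval of their Runx3 share held that of resting Rag1 cells. Klrd1, the CD94 subunit of an inhibitory receptor, was at 0 in all CD4sp-like cells, with the same interval and limit as above, and above 0 in 17.2% of the CD8-side cells. Itgae, the integrin chain CD103, was above 0 in 1 CD4sp-like cell and in 19.4% of the CD8-side cells. Ctsw, a protease of cytotoxic cells, did not follow this pattern as far: it was above 0 in 27.6% of the CD4sp-like cells, 60.2% of the CD8-side cells and 5.92% of the resting Rag1 cells.

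Lineage genes were also counted as sets. Zbtb7b and Cd40lg were set against Runx3, Nkg7, Itgae and Klrd1. At least 1 gene of the first set and none of the second was above 0 in 26 CD4sp-like cells, or 29.9%, and the reverse held in 6 cells, or 6.90%. In the CD8-side cells the counts were 7 and 69 of 93. The 84 cells with neither coreceptor call held 14 cells with the CD4 set alone, 18 with the CD8 set alone and 10 with both, and 42 had no gene of either set. The CD8 set alone was found in 21.4% of them (13.2 to 31.7%), 30.6% of the antigen-presenting cells and 14.9% of resting Rag1 cells. The share of 6.90% in the CD4sp-like cells was below both of the latter. Runx3 was above 0 in 25.0% and Itgae in 13.9% of the antigen-presenting cells, and whether free RNA or their own expression gave these was not tested. The CD4 set alone was found in 2.78% of the antigen-presenting and 5.60% of resting Rag1 cells. In the 300 cells that came next by the score, it was found in 74, or 24.7% (19.9 to 29.9%). That interval overlapped the one of the CD4sp-like cells (20.5 to 40.6%), so the CD4 set alone did not set them apart from the cells next in score. Those next 300 cells were not split by coreceptor, and 23.7% of them had the CD8 set alone. Of the 36 cells with both coreceptors, 5 had the CD4 set alone and 19 the CD8 set alone. In the CD4sp-like cells, 51 of 87 had no gene of either set, so that most of them rest on Cd4 and Cd8b1 alone.

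**Figure D2:**
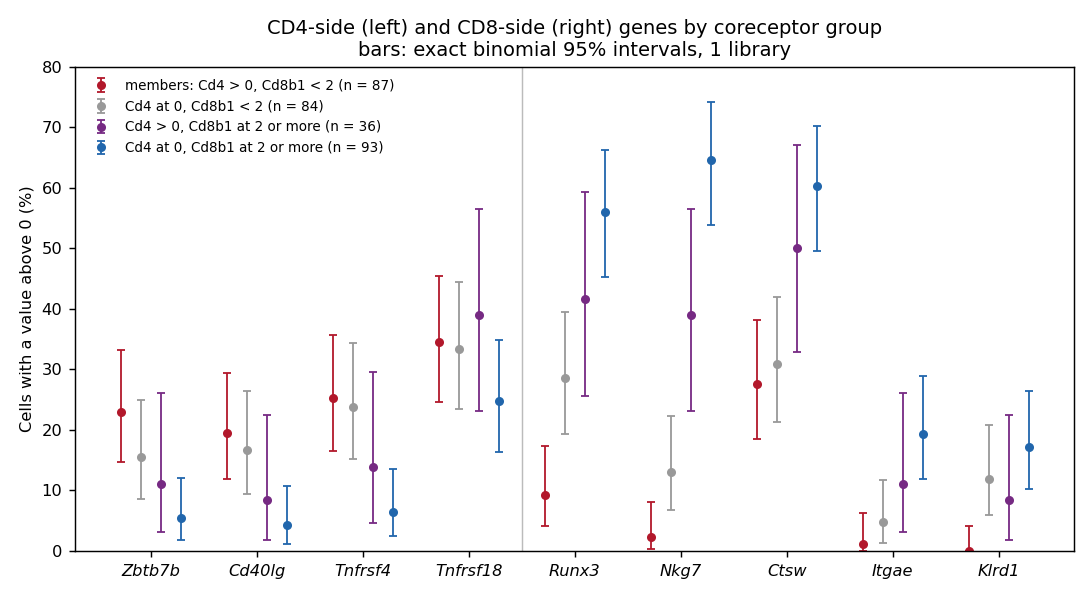
Share of cells with a value above 0 (y axis, %) for 4 genes of the CD4 side and 5 of the CD8 side (x axis) in the 4 coreceptor groups of the 300 cells; points are shares and bars exact binomial 95% intervals that cover counting error only. Nkg7 stood at 2.30% of the members and 64.5% of the CD8-side cells, and Zbtb7b at 23.0% and 5.38%.

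Against all of the rest of the 300, few genes stood apart. A gene entered a comparison if 20% or more of the cells of one side or the other had it above 0 and the rule had not used it, and a difference of mean log2 values of 0.5 or more was counted. Of 2400 genes, 1 was higher by that much in the CD4sp-like cells (0.0417%) and 3 were lower (0.125%). The higher gene was Ifi27l2a, an interferon-induced gene, which ranged from 0 to 5.82 with a median of 3.47 in the CD4sp-like cells and from 0 to 5.59 with a median of 2.94 in the rest of the 300. Its means were 3.20 ± 1.44 and 2.68 ± 1.62, so the 0.52 between them was smaller than the spread over cells in either group. The difference was under 0.5 with 200 top cells, with z scores, with Cd4 at 1 or higher, without the deepest 5% of cells or, chosen after seeing the data, with Cd8b1 at no more than 2 steps, and under each of these no gene was higher by 0.5. The lower genes were Nkg7 (-0.79), Cd8a (-0.70), which encodes the partner chain of Cd8b1, and AW112010 (-0.52), a transcript of activated and innate-like lymphocytes. Runx3 came next at -0.46. The following genes on the lower side were Ly6e (-0.42), Gmfg (-0.40), the anti-apoptotic gene Bcl2 (-0.35), the gut-homing chemokine receptor Ccr9 (-0.35), S100a10 (-0.35) and Cnn2 (-0.35).

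After Ifi27l2a, the genes highest in the CD4sp-like cells against the rest of the 300 lay at 0.30 to 0.40. Igfbp4, which encodes a binding protein of insulin-like growth factors, had means of 1.15 ± 1.47 and 0.74 ± 1.34 and was above 0 in 46.0% and 32.4% of cells, but the difference turned to -0.17 when Cd4 had to be at 1 or higher. That setting also selects by depth, because the value of 1 step falls with depth. Over the CD4sp-like cells, Spearman's rho with the number of detected genes was -0.38 for Cd4 and 0.42 for Igfbp4. Gm12840, a predicted gene, was at 0 in 45 CD4sp-like cells and reached 5.82 in the others, with means of 1.94 and 1.54. The surface tetraspanin Tspan32 differed by 0.36, the glycolytic enzymes Pkm and Eno1 by 0.35 and 0.33, Itm2a, a membrane protein induced during positive selection, by 0.31, Cytip by 0.31, Tesc by 0.31 and Smc6 by 0.30. All of these differences were smaller than the spread over cells. The CD4 lineage list had 10 genes, of which 7 could be compared; none differed by 0.5 and the median difference was 0.05, beside a median of 0.00 over all genes compared. Of 13 CD8 lineage genes, 4 could be compared and 2 were lower, beside the 0.125% above. Nkg7 and Runx3 entered through the rest of the 300 only, which fixes their direction. All 11 measured genes of the list lay below 0, beside 4762 of all 8838 genes.

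The CD8-side cells alone gave a clearer split. Of 2559 genes, 4 were higher by 0.5 or more in the CD4sp-like cells (0.156%) and 10 lower (0.391%). Higher were Ifi27l2a (0.71), Tspan32 (0.65), Gm12840 (0.62) and Igfbp4 (0.57), followed by Tesc (0.47), Itm2a (0.47), the costimulatory receptor Cd28 (0.45), Cytip (0.39), Rgs10 (0.38) and Fxyd5 (0.37). Lower were Nkg7 (-1.25), Cd8a (-1.15), Runx3 (-0.69), AW112010 (-0.66), Rgcc (-0.65), Ccr9 (-0.63), Selplg (-0.56), which encodes a ligand of selectins, Cox8a (-0.54), Ctsw (-0.51) and Bcl2 (-0.50). Of the CD8 lineage list, 4 genes were among the lower ones, and 10 of its 11 measured genes lay below 0, beside 4554 of all 8838 genes. Of the 4, Nkg7 and Runx3 entered through the CD8-side cells only, which fixes their direction. Cd8a encodes the partner chain of Cd8b1, on which these groups were split. Tnfrsf4 (OX40), a costimulatory receptor of activated and regulatory CD4 cells, was above 0 in 25.3% of the CD4sp-like cells (16.6 to 35.7%) and 6.45% of the CD8-side cells (2.40 to 13.5%). Its share in resting Rag1 cells was 2.88%.

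Markers of regulatory T cells were mostly rare. Foxp3, the factor that defines them, was above 0 in 1 cell, or 1.15% (0.0291 to 6.24%), and that cell also had Tnfrsf4. Ctla4 was above 0 in 3.45% and Il2ra in 2.30%. Tnfrsf18 (GITR), which regulatory T cells and other activated T cells carry, was above 0 in 34.5% of the CD4sp-like cells and 17.3% of resting Rag1 cells, and Izumo1r in 20.7% and 3.84%. Ikzf2 was above 0 in 21.8%, below the 30.1% of resting Rag1 cells. Tnfrsf4 was detected with Tnfrsf18 in 13 CD4sp-like cells. The summed level of the 10 regulatory T markers measured ranged from 0 to 14.6 with a median of 0.94 in the CD4sp-like cells, and from 0 to 13.9 with a median of 0.97 in the CD8-side cells. Of 10 innate-like markers, Klrk1 and Klra1 were at 0 in every CD4sp-like cell, and the summed level reached 5.42, against 23.6 in the CD8-side cells. Their part in the other differences was not tested.

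Against resting Rag1 cells many more genes stood apart. That group is named by its rule and is not pure: Rag1 can come from free RNA, and its cells had summed levels of up to 31.5 over the 11 antigen-presenting markers, with as many as 8 detected, and up to 37.3 over 17 cycling genes. The part of such cells in the differences was not tested. Of 2664 genes, 72 were higher by 0.5 or more (2.7%) and 60 lower (2.25%). The genes furthest above were Tmsb10, an actin-binding peptide gene, with a difference of 3.52, Ifi27l2a with 2.85, the MHC class I genes B2m, H2-D1 and H2-K1 with 1.98, 1.93 and 1.83, Gm12840 with 1.67, the cyclin gene Ccnd2 with 1.51, the adhesion receptor Cd2 with 1.32, Fxyd5 with 1.32 and Limd2 with 1.22. Tmsb10 ranged from 4.67 to 7.14 in the CD4sp-like cells and from 0 to 7.14 in the resting Rag1 cells, with medians of 6.14 and 2.13. Below were Ly6d, a surface protein of DP thymocytes (-2.23), Dntt, the template-free polymerase that adds junctional bases to receptor genes (-1.93), Gm4258 (-1.91), Cd8a (-1.78), Rag1 (-1.66, which chose that group), Hmgb1 (-1.65), Arpp21 (-1.61), Gmfg (-1.40), Endou (-1.40) and Ly6e (-1.24). The set of all 1693 cells outside the 300 also held cycling cells. Against it 58 of 3377 genes were higher (1.72%) and 107 lower (3.17%), and the lower ones included Hmgb2 (-1.52), H2afz (-1.30), Stmn1 (-1.26) and the histone gene Hist1h2ap (-1.67). The 10 highest were those above with the T cell receptor α gene Trac (1.17) in place of Limd2.

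**Figure D3:**
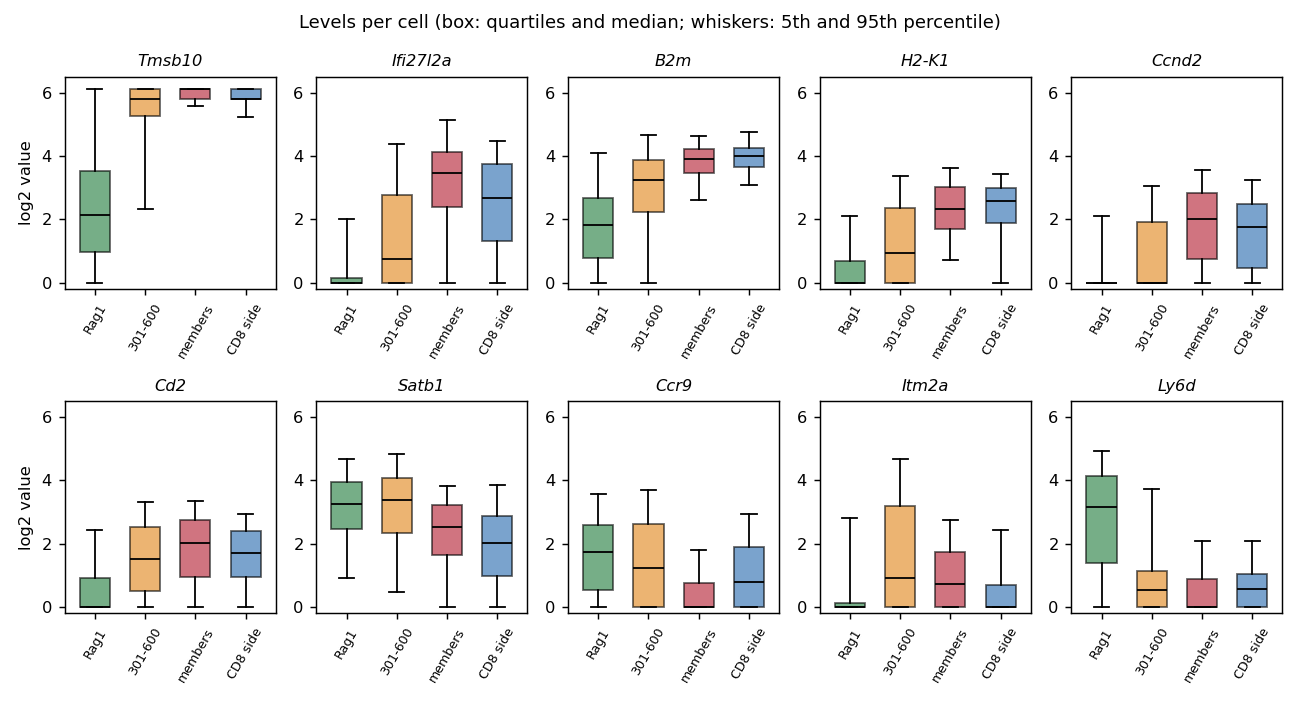
Deposited log2 values (y axis) of 10 genes in resting Rag1 cells, cells ranked 301 to 600 by the score, the 87 members and the CD8-side cells (x axis); boxes span the quartiles with the median as a line, and whiskers the 5th to the 95th percentile of cells. Median Tmsb10 was 2.13 in resting Rag1 cells and 6.14 in the members, and Ccr9 was lower in the members than at ranks 301 to 600.

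The cells ranked 301 to 600 lay just below the score limit, with a median score of 1.42, against 2.43 in the CD4sp-like cells and 2.38 in the rest of the 300. Against ranks 301 to 600, 21 of 2428 genes were higher (0.865%) and 6 lower (0.247%). Ifi27l2a led with a difference of 1.82 and had medians of 3.47 and 0.74. It was followed by Gm12840 (1.18), H2-K1 (1.02), Fxyd5 (1.00), Igfbp4 (0.95), H2-D1 (0.93), the membrane protein gene Emp3 (0.90), Ms4a6b (0.87), Ccnd2 (0.86) and B2m (0.83). Ccr9, which holds thymocytes toward its ligand in the thymus and gut, was lower by 1.07, with medians of 0 and 1.23. The chromatin organiser Satb1 was lower by 0.78, with medians of 2.54 and 3.38, and Itm2a by 0.66, although similar shares of both groups, 57.5% and 59.0%, had Itm2a above 0. Then came Cd8a (-0.57), Eif4a1 (-0.52), Gm4258 (-0.51), Hmgb1 (-0.47), Id2 (-0.47), Sox4 (-0.44) and Dntt (-0.43). Zbtb7b was above 0 in 13.0% of cells at ranks 301 to 600 (9.41 to 17.3%), an interval that overlaps that of the CD4sp-like cells, and Cd40lg in 21.3%. The cells ranked 301 to 600 were not split by coreceptor. Genes of other cell types also had lower means in the CD4sp-like cells than in this group, namely 12 of 12 rearranging DP genes (median -0.19), 10 of 10 innate-like and 9 of 11 antigen-presenting genes. Rag1 was above 0 in 33.7% of cells at ranks 301 to 600 and H2-Aa in 18.0%, against 19.5% and 14.9% of the CD4sp-like cells, and their part in the differences was not tested.

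Genes were also grouped by stage. A gene could enter a comparison through the group where it was high, which fixes its direction, so counts above or below 0 are given over all measured genes of a list. Against ranks 301 to 600, 10 of 11 semimature genes were lower in the CD4sp-like cells, with a median of -0.28 beside 0.00 over all 8838 genes, and Satb1 and Itm2a were lower by 0.5 or more, beside the 0.247% above. Cd24a, the heat-stable antigen lost at late maturity, was above 0 in 16.1% of the CD4sp-like cells, 38.7% at ranks 301 to 600 and 56.5% of resting Rag1 cells. Of 12 late mature genes, 9 lay above 0 against ranks 301 to 600, with a median of 0.15, beside 3802 of all 8838 genes. S1pr1 alone was higher by 0.5 or more (0.52), beside 0.865% of all genes compared, and it passed the detection limit in the CD4sp-like cells only. Against the resting Rag1 cells, 4 of the 12 were higher by 0.5 or more, beside 2.7% of all genes compared, and 1 lower, beside 2.25%. The lower one was the interferon-γ receptor gene Ifngr1, with means of 0.26 and 1.05. Of the 11 that could be compared, 6 passed through the CD4sp-like cells only. All 12 rearranging DP genes had lower means than in the resting Rag1 cells, 8 of them by 0.5 or more, beside 2.25% of all genes compared. Their median was -0.87 beside -0.01 over all 8838 genes, 5 of the 11 compared passed through the resting Rag1 cells only, and Rag1 itself chose that group. Against the CD8-side cells neither the semimature list (median difference 0.04) nor the late mature list (0.03) had a gene higher by 0.5 or more. The 1 lower gene was Bcl2, which was above 0 in 57.5% of the CD4sp-like and 77.4% of the CD8-side cells.

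Of 15 genes of exit and homing, 5 lay above 0 and 10 below 0 against the CD8-side cells, with a median difference of -0.03 beside 0.00 over all 8838 genes. Of all genes, 4138 lay above 0 and 4554 below 0. S1pr1, the receptor that guides cells into the blood, was above 0 in 40.2% of the CD4sp-like cells (29.9 to 51.3%), 40.9% of the CD8-side cells, 7.33% at ranks 301 to 600 and 2.40% of resting Rag1 cells. The values ran from 0 to 2.66 in the CD4sp-like cells and from 0 to 3.08 in the CD8-side cells. The integrin gene Itgb7 was above 0 in 35.6% of the CD4sp-like and 46.2% of the CD8-side cells, and Foxo1, a factor that drives Klf2, in 37.9% and 34.4%. Of the 11 that could be compared with the CD8-side cells, Ccr9 alone differed by 0.5 or more, beside 0.391% lower of all genes compared. Ccr9 was above 0 in 33.3% of the CD4sp-like cells, 59.1% of the CD8-side cells and 79.2% of resting Rag1 cells, and the values of the groups overlapped from 0 to 3.66. Il7r, the interleukin 7 receptor chain, was above 0 in 34.5% and 32.3%. Of 11 recirculating or memory genes, Cd44 was above 0 in 3.45% of the CD4sp-like cells, S100a4 in 5.75%, S100a6 in 3.45% and Ahnak in 1.15%, whereas S100a10 was above 0 in 75.9%, Crip1 in 83.9% and Vim in 69.0%. Vim was 1.15 higher than in resting Rag1 cells, Lgals1 (-0.70) and Anxa2 (-0.80) were lower, and Vim (0.62) and Crip1 (0.54) were higher than at ranks 301 to 600. Summed over the 11 genes, the level ranged from 0.80 to 14.7 with a median of 6.02 in the CD4sp-like cells, from 0 to 24.0 with a median of 6.52 in resting Rag1 cells and from 1.08 to 18.6 with a median of 6.97 in the CD8-side cells. Its part in the other differences was not tested.

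**Figure D4:**
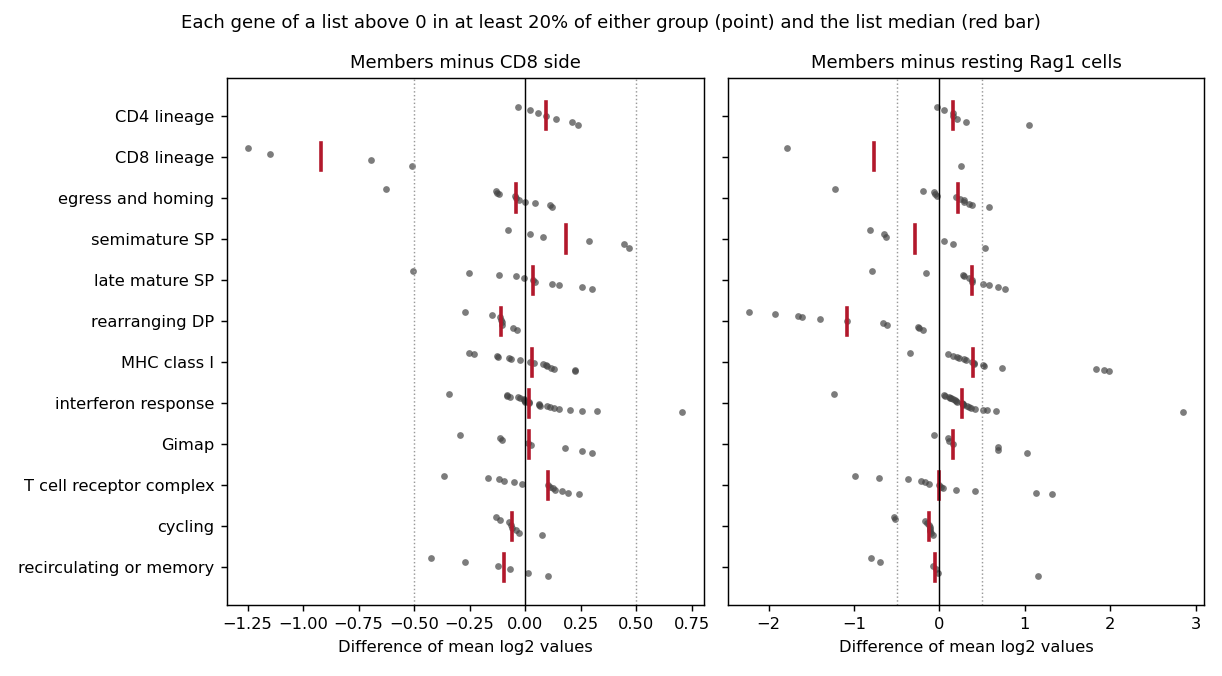
Difference of mean log2 values (x axis) of the members from the CD8-side cells (left) and from resting Rag1 cells (right) for the compared genes of 12 lists (y axis), which may have entered through 1 group alone; each point is a gene, red bars are list medians and dotted lines mark 0.5. Against the CD8-side cells the 4 plotted genes of the CD8 lineage list lay below -0.5, while the median over its 11 measured genes was -0.16, and against resting Rag1 cells the 11 plotted rearranging DP genes had a median of -1.09, while that over all 12 was -0.87.

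Within the 87 cells, S1pr1 without Cd69, which keeps S1pr1 off the cell surface, was found in 29 cells, Cd69 without S1pr1 in 8, both in 6 and neither in 44, with median depths of 2179, 2023.5, 2225.5 and 2167.5 steps. Gm12840 was above 0 in 16 of the 29 and in 1 of the 8, Itgb7 in 11 and 1, and S1pr4, a related receptor, in 11 and 1. Mean Satb1 was 2.21 ± 1.19 in the first and 3.28 ± 0.64 in the second group, and mean Itm2a 0.59 ± 0.78 and 1.38 ± 1.37. Other genes went the other way: Cd24a was above 0 in 7 of the 29 and 1 of the 8, Il7r in 8 and 4, and mean Bcl2 was 1.11 ± 1.16 and 1.44 ± 1.05. The 6 cells with both S1pr1 and Cd69 had a mean Satb1 of 1.64 ± 0.75, below the first group. With 8 cells the shares are wide, as 1 of 8 has an interval of 0.316 to 52.7%, and whether the classes differ beyond missed detection was not tested. Itm2a and S1pr1 were detected together in 17 cells, where 50 cells had Itm2a and 35 had S1pr1. Over the 87 cells, Spearman's rho between pairs of genes, or of a gene and the number of detected genes, ran from -0.38 (Cd4 with detected genes) to 0.42 (Igfbp4 with detected genes), and Igfbp4 had a rho of 0.40 with Ccnd2. These cells share 1 library and the value of 1 step falls with depth, so the correlations describe the table and are no finding.

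MHC class I genes had means close to those of the CD8-side cells. B2m, the light chain of MHC class I, ranged from 1.65 to 4.94 in the CD4sp-like cells with a mean of 3.80 ± 0.63, against 3.92 in the CD8-side cells, 2.97 at ranks 301 to 600 and 1.81 in resting Rag1 cells. H2-K1 was above 0 in 96.6%, 91.4%, 61.3% and 33.3% of these groups. Of 18 MHC class I genes, none differed by 0.5 from the CD8-side cells (median difference 0.00). Against ranks 301 to 600, 3 were higher by 0.5 or more, beside 0.865% of all genes compared. Against resting Rag1 cells 6 were higher by 0.5 or more, beside 2.7% of all genes compared, and 17 of 18 differences lay above 0 with a median of 0.35, where 3784 of all 8838 genes did. Tap2, which encodes a peptide transporter chain, was the exception, with means of 0.24 in the CD4sp-like cells and 0.59 in the resting Rag1 cells. The antigen-presenting cells had means of 3.86 for B2m and 2.17 for H2-K1.

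Most interferon response genes had higher means than in resting Rag1 cells. Of 28 genes, 26 had a difference above 0 with a median of 0.19, beside 3784 of all 8838 genes, and 4 reached 0.5, beside 2.7% of all genes compared. Among the 4 were Ifi27l2a (2.85) and the schlafen family members Slfn2 (0.66) and Slfn1 (0.50). Ly6e was lower by 1.24. Of the 22 genes that could be compared, 18 passed the detection limit in the CD4sp-like cells only, which fixes their direction. Against the CD8-side cells 16 of 28 had a difference above 0, beside 4138 of all 8838 genes, Ifi27l2a alone reached 0.5 and the median was 0.01. Isg15, a ubiquitin-like protein, was above 0 in 37.9% of the CD4sp-like cells (27.7 to 49.0%), 37.6% of the CD8-side cells, 21.7% at ranks 301 to 600 and 13.3% of resting Rag1 cells, and its values in the CD4sp-like cells ran from 0 to 3.34 with a median of 0. Ifit1, which binds foreign RNA, was above 0 in 26.4%, 25.8%, 7.67% and 2.88%. Both were above 0 in 15 CD4sp-like cells, Isg15 alone in 18 and Ifit1 alone in 8, and 32 of the 33 cells with Isg15 had Ifi27l2a. In antigen-presenting cells Ifi27l2a was above 0 in 88.9% and Isg15 in 30.6%.

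The promoters of Isg15 and Ifit1 are shown because the means of this list lay together above those of resting Rag1 cells and both hold letters of the interferon-stimulated response element, searched as GAAA, any 2 bases, GAAA on both strands with overlaps allowed. The 250 bases before the transcription start were read from RefSeq on GRCm38.p6. Isg15 lies on the minus strand, window chr4:156200819-156201068, with 3 overlapping matches that begin 78, 72 and 66 bases before the start. Ifit1 lies on the plus strand, window chr19:34640639-34640888, with 2 matches that begin 104 and 85 bases before the start and read TTTC, any 2 bases, TTTC on the strand shown. Capitals mark the matches.
Isg15: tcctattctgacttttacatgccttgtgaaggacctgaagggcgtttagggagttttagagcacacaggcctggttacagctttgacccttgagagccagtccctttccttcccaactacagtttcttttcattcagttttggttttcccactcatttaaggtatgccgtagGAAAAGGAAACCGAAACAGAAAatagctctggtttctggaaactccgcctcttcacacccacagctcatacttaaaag
Ifit1: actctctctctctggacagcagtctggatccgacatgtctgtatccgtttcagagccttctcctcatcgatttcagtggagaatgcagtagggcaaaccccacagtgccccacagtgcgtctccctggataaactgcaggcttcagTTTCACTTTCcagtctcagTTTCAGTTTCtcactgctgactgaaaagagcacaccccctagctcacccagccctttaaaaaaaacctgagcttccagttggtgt

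Of the 28 genes of the list, 20 had a window in the table used, and 10 of these, or 50.0%, held a match: Bst2, Gbp2, Ifi203, Ifit1, Ifit3, Igtp, Irgm1, Isg15, Stat2 and Trim30a. Among all 27025 genes with a window, 3.46% held one in any window, and 2.98% of 32851 windows did. Of 10 egress and homing genes with a window none held a match. A match is a run of letters and does not show binding. Genes with a match did not all have higher means: Isg15 differed from resting Rag1 cells by 0.42, whereas Stat2 was above 0 in 3.45% of the CD4sp-like cells and 6.24% of the resting Rag1 cells.

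Further lists were described in the same way. Of 8 Gimap genes, guanosine triphosphate-binding proteins of lymphocyte survival, 3 were higher by 0.5 or more than in resting Rag1 cells, beside 2.7% of all genes compared: Gimap4, above 0 in 73.6% against 9.76%, Gimap3, in 56.3% against 7.52%, and Gimap6, in 82.8% against 56.2%. Gimap4 and Gimap3 passed the detection limit in the CD4sp-like cells only, which fixes their direction. Over all 8 genes 7 lay above 0 with a median of 0.15, beside 3784 of all 8838 genes above 0. None of the 8 differed by 0.5 from the CD8-side cells. Of 17 genes of T cell identity and quiescence, the factor Lef1 (0.89) and the antiproliferative gene Btg1 (0.54) were higher than in resting Rag1 cells, and Tcf7 (-0.98), Bcl11b (-0.81), Satb1 (-0.81) and Btg2 (-0.67) were lower. These 2 higher and 4 lower genes, like those of the lists that follow, stand beside 2.7% and 2.25% of all genes compared. Against the CD8-side cells 16 of the 17 lay above 0, beside 4138 of all 8838 genes, and none reached 0.5. The list median was 0.12 beside 0.00 over all genes. Of 13 T cell receptor genes, Cd2 and Trac were higher and Trbc2 (-0.99) and Trbc1 (-0.70) lower than in resting Rag1 cells, and none differed by 0.5 from the CD8-side cells. Among 17 cycling genes none was higher by 0.5 than in resting Rag1 cells, a group chosen with Mki67 at 0, and Stmn1 and Hmgb2 were lower. The summed level of the 17 genes had a median of 3.88 in the CD4sp-like cells, 4.05 in the rest of the 300 and 4.35 in resting Rag1 cells. The highest sum was 33.2 in the CD4sp-like cells, 27.6 in the rest of the 300 and 37.3 in resting Rag1 cells, and as many as 16 of the 17 genes were detected in a CD4sp-like cell and in a resting Rag1 cell. Epithelial and stromal genes (4 measured) summed to at most 2.01 in a CD4sp-like cell, and the globin genes (2 measured) to at most 0.96.

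In scATAC-seq, a readout that the rule did not use, CD4 sorted thymocytes had the lowest signal of the 3 sorts at Cd8a, Cd8b1 and Rag1, and also at Cd4 itself, where counts were few. The sorts held 558091 and 494645 counts in peaks, and DP sorted cells 478264. A sort on surface CD4 or CD8 does not select for maturity. The labels tie no cell to an animal, so there was no test, and intervals are exact and cover counting error of the summed counts. At the peak nearest to the transcription start of Cd8a (chr6:71373427-71379173, plus strand, GRCm38), the signal was 0.0358 counts per 10000 counts in peaks in CD4 sorted cells, 0.404 in CD8 sorted and 0.565 in DP sorted cells. The ratio of CD4 to CD8 sorted cells was 0.0886 (95% interval, 0.0100 to 0.365). At Cd8b1 (chr6:71322788-71337494, plus strand) the values were 0.430, 0.869 and 0.878, with a ratio of 0.495 (0.287 to 0.834). Rag1 (chr2:101638282-101649501, minus strand) had no count in CD4 sorted cells, 19 in CD8 sorted and 40 in DP sorted cells, and the exact 95% interval of the ratio of CD4 to CD8 sorted cells reached from 0 to 0.190. Per 10000 counts, Rag1 stood at 0.384 in CD8 sorted and 0.836 in DP sorted cells. The purity of the sorts was not tested and bears on every ratio between them.

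At Klf2, Ccr7 and S1pr1 the intervals of the ratio between CD4 and CD8 sorted cells held 1. Klf2 had 0.699 counts per 10000 in CD4 sorted, 0.485 in CD8 sorted and 0.397 in DP sorted cells, and Ccr7 had 0.681, 0.485 and 0.376. The ratios of CD4 to CD8 sorted cells were 1.44 (0.845 to 2.50) and 1.40 (0.820 to 2.45). S1pr1 had 11 counts in CD4 sorted cells, 14 in CD8 sorted and 2 in DP sorted cells, or 0.197, 0.283 and 0.0418 per 10000, with a ratio of 0.696 (0.286 to 1.65). Runx3 (chr4:135120652-135177990, plus strand) had 0.358 counts per 10000 in CD4 sorted, 0.647 in CD8 sorted and 0.230 in DP sorted cells, with a ratio of 0.554 (0.300 to 0.999). Among cells whose label number was under 10000 its interval held 1 (0.284 to 1.01). For Zbtb7b (chr3:89377644-89394776, minus strand) the nearest peak had 3 counts against 1, which is too few to compare, whereas all 5 peaks within 2000 bp had 50 against 12, a ratio of 3.69 (1.94 to 7.62). Cd4 (chr6:124864692-124888221, minus strand) went the other way: its nearest peak had 1 count in CD4 sorted, 2 in CD8 sorted and 9 in DP sorted cells, and all 6 peaks within 2000 bp had 1 against 7, a ratio of 0.127 (0.00281 to 0.986). These peaks overlap. Whether a read was counted in more than 1 is not given in the sources used here, and if it was, the intervals over all peaks are too narrow. Gata3 with 3 against 1 and Cd40lg with 3 against 2 were too thin at the nearest peak.

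**Figure D5:**
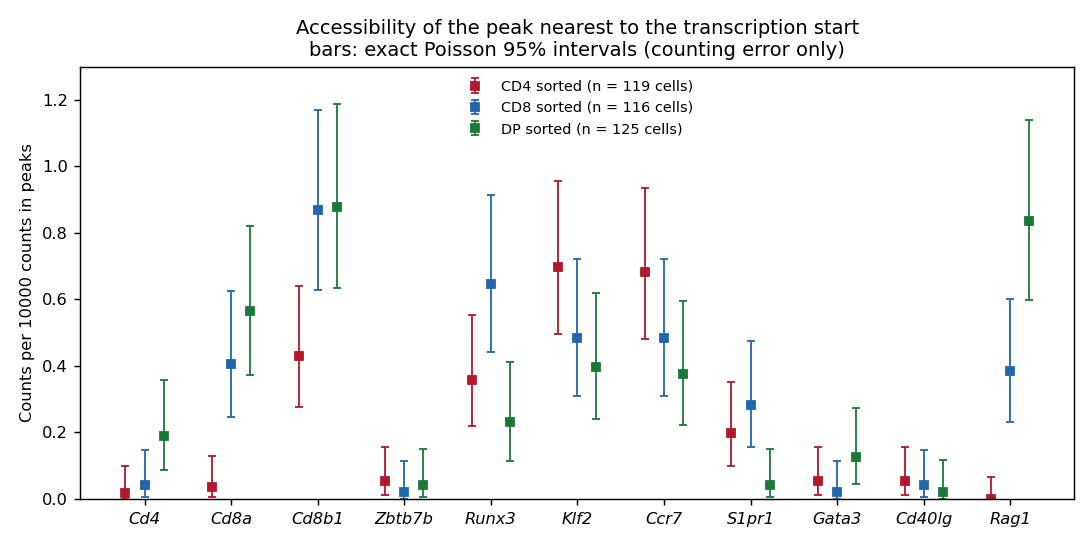
Counts per 10000 counts in peaks (y axis) at the peak nearest to the transcription start of 11 genes (x axis) in CD4, CD8 and DP sorted cells; squares are sums over the cells of a sort and bars exact Poisson 95% intervals. Cd8a, Rag1 and Cd4 were lowest in CD4 sorted cells, with 2, 0 and 1 counts.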

How the data were processed

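For scRNA-seq, the authors aligned reads with Cell Ranger 1.3.1 to GRCm38.p5, removed some cells and genes, quantile-normalized the rest and deposited log2 values (8846 genes, 1993 barcodes); 79.7% of values were 0. The study's upper limit of 4500 detected genes would remove 7 barcodes, none of them members, and leave the 1986 cells it states. For scATAC-seq, the authors deposited raw counts in 138317 peaks of 4000 bp, with 1628 cell columns not used here; 22.5% of peak centers lay within 2000 bp of a GENCODE vM21 start, and 6.21% after a shift of 100000 bp. Molecule counts were not used here, so depth is known as detected genes and steps. How the normalization changed differences was not tested. Thinning drew 1300 steps per cell. Doublets were not called; an alternative left out each group's 5% of cells with most genes. Intervals are exact (Clopper-Pearson or Poisson, 95%) and cover counting error only. The members and lists were chosen with earlier results of these data known. Genes were named by rule: 10 each way per comparison, and the largest differences per list; others were chosen after their values were seen. Scripts used Python 3.11.15, numpy 2.4.6, pandas 2.3.3 and scipy 1.17.1 and were tested on simulated data. Some results on single genes are not reported here.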

Additional observations from a re-analysis of the deposited data

How the results depend on the processing

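The number of CD4sp-like cells was 56 with Cd8b1 below 1 and 50 with Cd4 at 1 or higher. The count of genes higher than in the rest of the 300 was 2 with Cd8b1 below 1 and 0 with 200 top cells, z scores, Cd4 at 1 or higher, the deepest 5% of cells left out, a threshold of 1 or, chosen after seeing the data, Cd8b1 at no more than 2 steps (86 cells, 84 shared). At a threshold of 1, no gene was lower than in the rest of the 300, and 15 were higher and 18 lower than in all other cells. Counting Zbtb7b only above 1 gave 3.45% of CD4sp-like cells and 1.88% of the rest of the 300, and thinning gave 4.23% of the rest. Igfbp4 had a difference of -0.17 from the rest of the 300 with Cd4 at 1 or higher. A limit of 1 on Zbtb7b or Cd4 also selects by depth, because the value of 1 step falls with depth. Of 720 differences of named genes under 9 settings, 701 stayed within 1.5 times. Leaving out class II-marked cells moved none. The Ccr7 accessibility ratio was 3.55 (12 counts against 1, interval 0.525 to 152) among cells with label numbers of 10000 or more and 1.16 under 10000; in the former most CD8 sorted loci had no count and gave no ratio. The cause of these shifts was not tested. No paired analysis was possible because the scRNA-seq data are 1 library and cells are not replicates. Detection of low genes such as Zbtb7b is limited by depth.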
